A study of Mus musculus with 6 samples.

Results

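The cell cycle and mitosis genes described here are 47 genes that cells transcribe while they copy and divide their chromosomes. They were found by gene symbol in a table of read counts with 49568 symbols, all 47 were present, and all 47 passed the filter on low counts. The RNA came from whole lungs of female C57BL/6 mice aged 4 months, 3 of them TNF+ and 3 TNF-, each sequenced as 1 library. The TNF+ animals bear a transgene for human TNF and develop chronic arthritis and pulmonary hypertension, and the TNF- animals are wildtype littermates that lack it. The promoter that drives the transgene is not given in the sources used here, and every TNF+ lung came from the same transgenic line at 1 age, so the comparison is between genotypes and not over the course of disease. The question asked of these genes was whether transcripts of DNA replication and division differ between the lungs of the 2 genotypes.

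Before a cell divides it passes from G1 into S phase, when cyclin E and the E2F factors switch on replication, and the MCM helicase opens the DNA for the polymerases. It then enters mitosis, driven by CDK1 with its A and B cyclins, and the chromosomes attach to the spindle through their kinetochores until the anaphase-promoting complex releases them. Most cells of an adult lung are at rest and carry few of these transcripts, and dividing immune, endothelial or epithelial cells can all contribute them to a whole lung. In bulk samples, a change in the number of dividing cells and a change in RNA per dividing cell cannot be told apart.

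The 6 libraries held between 25396923 and 32529408 counts. The detection limit for counting error alone was taken as 3 counts, which equalled 0.0922 to 0.118 CPM (counts scaled to the library total). All other CPM values were scaled to library totals adjusted by TMM normalization. They are therefore not on the same scale as this limit or as the percentages of counts. Lungs of the same genotype differed well beyond counting noise. Surfactant, airway and other lung markers were abundant in all 6 lungs, as the tissue label says. The gene Gm42418 took 5.22% of all counts in TNF+ lung 1 and at most 0.274% in any other, and TNF- lung 1 carried squamous epithelium genes at a summed 3436 CPM, against 10.2 to 29.2 CPM elsewhere.

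Of the 47 genes, 31 were higher in TNF+ lungs and 0 were lower at an adjusted p under 0.05 (edgeR, quasi-likelihood test, Benjamini-Hochberg over 19199 genes). Among all genes tested, 24.0% were called higher and 23.4% were called lower. No member was lower at an unadjusted p under 0.05 either, by edgeR, DESeq2 or limma-voom, while 37, 36 and 37 were higher at that level. The log2 fold change was above 0 for 46 of the 47 genes, and Mcm4 was the exception. The median log2 fold change of the members was 0.81, and that of all genes tested was 0.03. For 40 members the lowest TNF+ lung exceeded the highest TNF- lung, which was so for 30.5% of all genes tested (58.7% counting either direction), and for the other 7 (Mcm4, Mcm7, Bub1, Cdc20, Ube2c, Cenpa and Kif23) the groups overlapped. The rise was not evenly spread over the TNF+ lungs, since TNF+ lung 3 had the highest value for 37 members, TNF+ lung 1 for 7 and TNF+ lung 2 for 3. Without TNF+ lung 3 the median of the members was 0.59 and 18 were called.

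**Figure D1:**
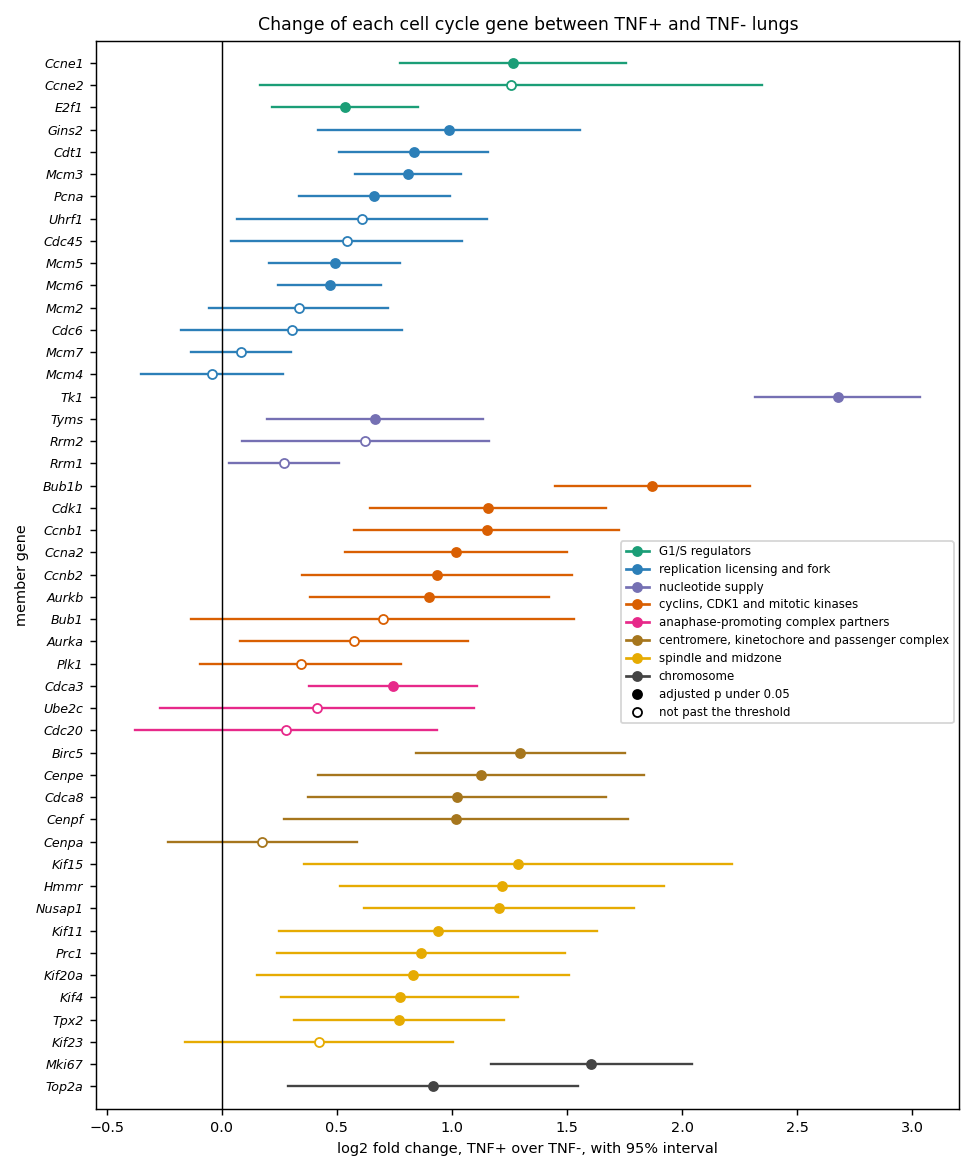
Log2 fold change of each of the 47 genes, TNF+ over TNF-, on the horizontal axis, with 95% intervals from edgeR's fit as lines and the genes in rows coloured by role. Filled points mark the 31 genes with an adjusted p under 0.05 and open points the other 16; Tk1 lies farthest to the right at 2.68, and Mcm4 is the only point left of 0.

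The members fell into 19 genes of S phase entry and DNA replication and 28 genes of mitosis. Of the S phase genes 10 were called higher (52.6%), with a median log2 fold change of 0.61. Of the mitotic genes 21 were called higher (75.0%), with a median of 0.93. Summed over the list in each lung, the S phase genes stood at 334, 316 and 381 CPM in TNF+ lungs against 231, 240.0 and 236 CPM in TNF- lungs. The mitotic genes stood at 264, 249.8 and 337 CPM in TNF+ lungs against 157, 139 and 112 CPM in TNF- lungs. All TNF+ lungs were above all TNF- lungs in both sums, and the ratio of the group means was 1.46 for the S phase genes and 2.08 for the mitotic genes. Whether the 2 classes differed from each other was not tested. All 47 genes together made up 0.0540%, 0.0551% and 0.0789% of the counts of the TNF+ lungs and 0.0391%, 0.0367% and 0.0365% of those of the TNF- lungs.

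**Figure D2:**
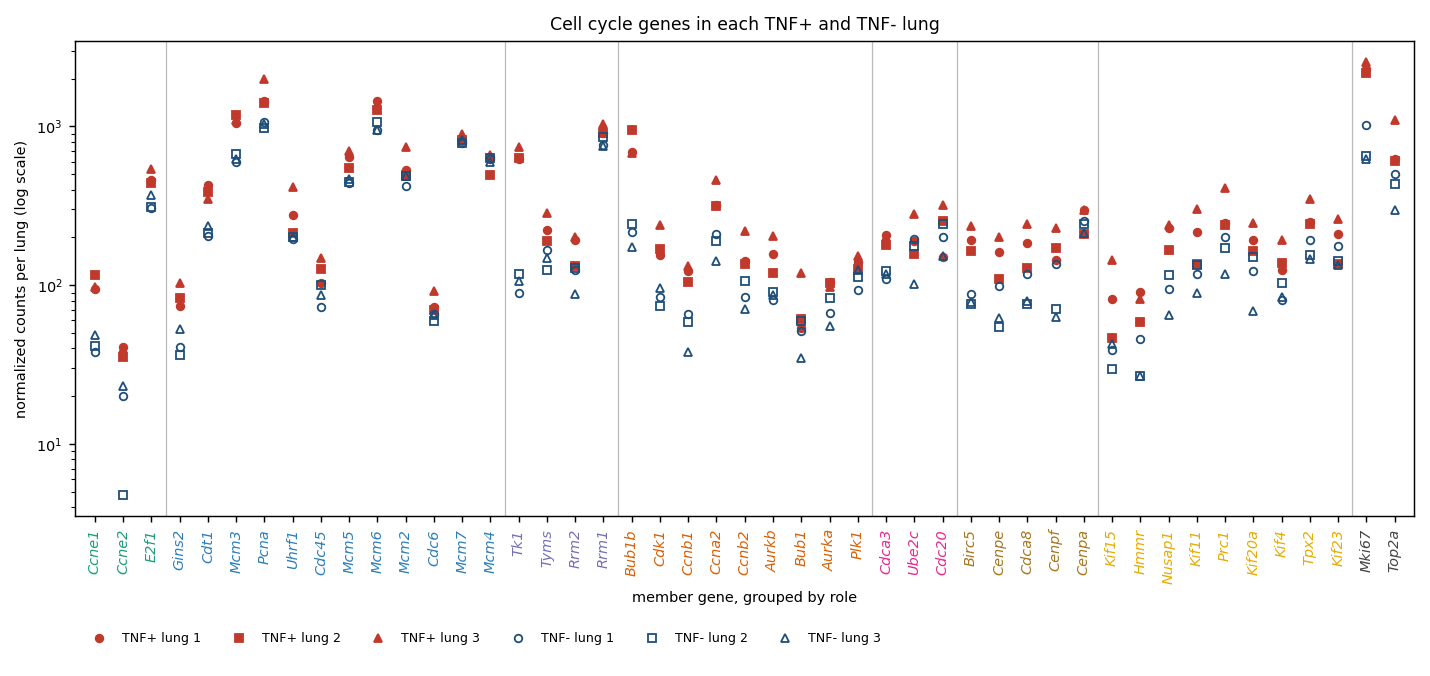
Normalized counts (vertical axis, log scale) of each member gene in each of the 6 lungs, with the genes along the horizontal axis in groups by role, separated by vertical lines, and filled red symbols for TNF+ and open blue symbols for TNF- lungs. The Tk1 and Bub1b symbols of the 2 genotypes stand far apart, those of Mcm4 and Mcm7 lie on each other, and the filled triangle of TNF+ lung 3 is the uppermost symbol for 37 genes.

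The promoters of the members were read for 3 sequence motifs of periodic genes, because mitotic genes and replication genes are known to be switched on through different ones. Mitotic genes commonly carry the cell cycle genes homology region (CHR), bound by the DREAM and MYB-MuvB complexes, together with CCAAT boxes bound by NF-Y. Genes of S phase entry carry sites for E2F factors. Windows of 300 bases, from 250 before to 50 after each annotated start, came from RefSeq on GRCm38.p6, and 40 of the 47 members matched with 43 windows of 32851. The CHR was searched as TTTGAA, the CCAAT box as CCAAT, and the E2F motif as any of 4 words, each on both strands. The E2F words were TTGGCGC with its close variant TTGCCGC, together with the word TTCGCGC with its close variant TTCCCGC. An E2F word overlapped a CCAAT box in 2 member windows, and E2F words overlapped each other in 4. In 9 windows, of Cdc6, E2f1, Mcm5, Mcm7, Uhrf1, Cdca3, Cdca8 and Kif4, the outermost start of the gene in GENCODE lay outside the window, so these windows do not cover that start.

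The CHR was present in 20 of 25 windows of mitotic members (80.0%) and in 2 of 18 windows of S phase members (11.1%), against 17.9% of all windows and 12.7% of the windows of the genes tested here. Among the 20 mitotic windows the CHR nearest to the start began within 50 bases of it in 19, and Mki67 was the exception at 98 bases before the start. An E2F motif was present in 11 of 18 S phase windows (61.1%) and in 5 of 25 mitotic windows (20.0%), against 9.57% of all windows and 14.9% of those of the genes tested. CCAAT boxes were present in 88.0% of mitotic and 66.7% of S phase windows, against 37.4% of all windows and 36.9% of those of the genes tested. A CHR and a CCAAT box stood together in 76.0% of mitotic windows, against 6.95% of all windows and 5.11% of those of the genes tested. The CHR was in 14 of 27 windows of members that were called and in 8 of 16 windows of members that were not. A match is a description of the letters and not of binding, and a window without a match says only that the letters are not in that window.

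Stretches of 180 bases, 150 before the start and 30 from it, are shown for 8 members that differ in motifs and in response, in lower case with the CHR, CCAAT box and E2F matches in capitals (a match on the other strand appears as its reverse complement). Ccnb2 (chr9:70421525-70421704 on the minus strand) has 3 CCAAT boxes that begin 87, 54 and 21 bases before the start and a CHR 4 bases after it. Cdk1 (chr10:69352883-69353062 on the minus strand) and Mki67 (chr7:135716350-135716529 on the minus strand) each hold 2 CHRs, and both genes rose in TNF+ lungs. Cdc20 (chr4:118437314-118437493 on the minus strand) has the same CHR and CCAAT letters and did not pass the test. The CHR of Bub1b (chr2:118598061-118598240 on the plus strand) begins 40 bases after the start, beyond the stretch shown. Mcm3 (chr1:20820283-20820462 on the minus strand) and Mcm6 (chr1:128359676-128359855 on the minus strand) carry E2F words and CCAAT boxes, and in Mcm6 the E2F words overlap in pairs. Tk1 (chr11:117825985-117826164 on the minus strand), the member with the highest fold change, has none of the 3 motifs as spelled here.
Ccnb2: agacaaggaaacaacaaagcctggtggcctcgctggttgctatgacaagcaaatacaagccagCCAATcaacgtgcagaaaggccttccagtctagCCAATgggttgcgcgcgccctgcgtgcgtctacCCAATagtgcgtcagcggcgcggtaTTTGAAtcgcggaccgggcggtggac
Cdk1: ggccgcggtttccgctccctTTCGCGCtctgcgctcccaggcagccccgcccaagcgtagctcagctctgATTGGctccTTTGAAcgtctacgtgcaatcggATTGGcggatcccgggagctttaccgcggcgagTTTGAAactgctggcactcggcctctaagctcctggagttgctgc
Mki67: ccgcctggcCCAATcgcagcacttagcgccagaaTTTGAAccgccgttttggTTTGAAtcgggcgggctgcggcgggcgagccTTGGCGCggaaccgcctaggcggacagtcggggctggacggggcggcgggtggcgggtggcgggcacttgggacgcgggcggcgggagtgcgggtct
Cdc20: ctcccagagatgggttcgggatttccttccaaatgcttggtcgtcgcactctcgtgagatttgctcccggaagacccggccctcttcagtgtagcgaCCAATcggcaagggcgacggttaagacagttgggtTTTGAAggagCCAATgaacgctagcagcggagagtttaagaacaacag
Bub1b: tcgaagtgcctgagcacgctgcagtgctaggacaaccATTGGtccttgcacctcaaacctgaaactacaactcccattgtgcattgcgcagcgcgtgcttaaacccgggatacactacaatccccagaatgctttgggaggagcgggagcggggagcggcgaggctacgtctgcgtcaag
Mcm3: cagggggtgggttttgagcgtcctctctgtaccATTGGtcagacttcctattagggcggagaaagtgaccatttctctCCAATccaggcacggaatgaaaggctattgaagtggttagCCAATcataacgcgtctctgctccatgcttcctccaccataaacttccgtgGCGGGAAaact
Mcm6: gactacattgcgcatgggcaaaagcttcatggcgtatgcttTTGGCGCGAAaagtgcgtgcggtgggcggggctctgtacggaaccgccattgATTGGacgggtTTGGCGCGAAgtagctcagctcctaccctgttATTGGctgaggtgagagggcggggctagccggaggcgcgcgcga
Tk1: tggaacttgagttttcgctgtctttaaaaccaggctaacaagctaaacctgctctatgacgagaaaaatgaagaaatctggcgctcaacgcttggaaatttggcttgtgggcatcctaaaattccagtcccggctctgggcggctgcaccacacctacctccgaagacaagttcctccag

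**Figure D3:**
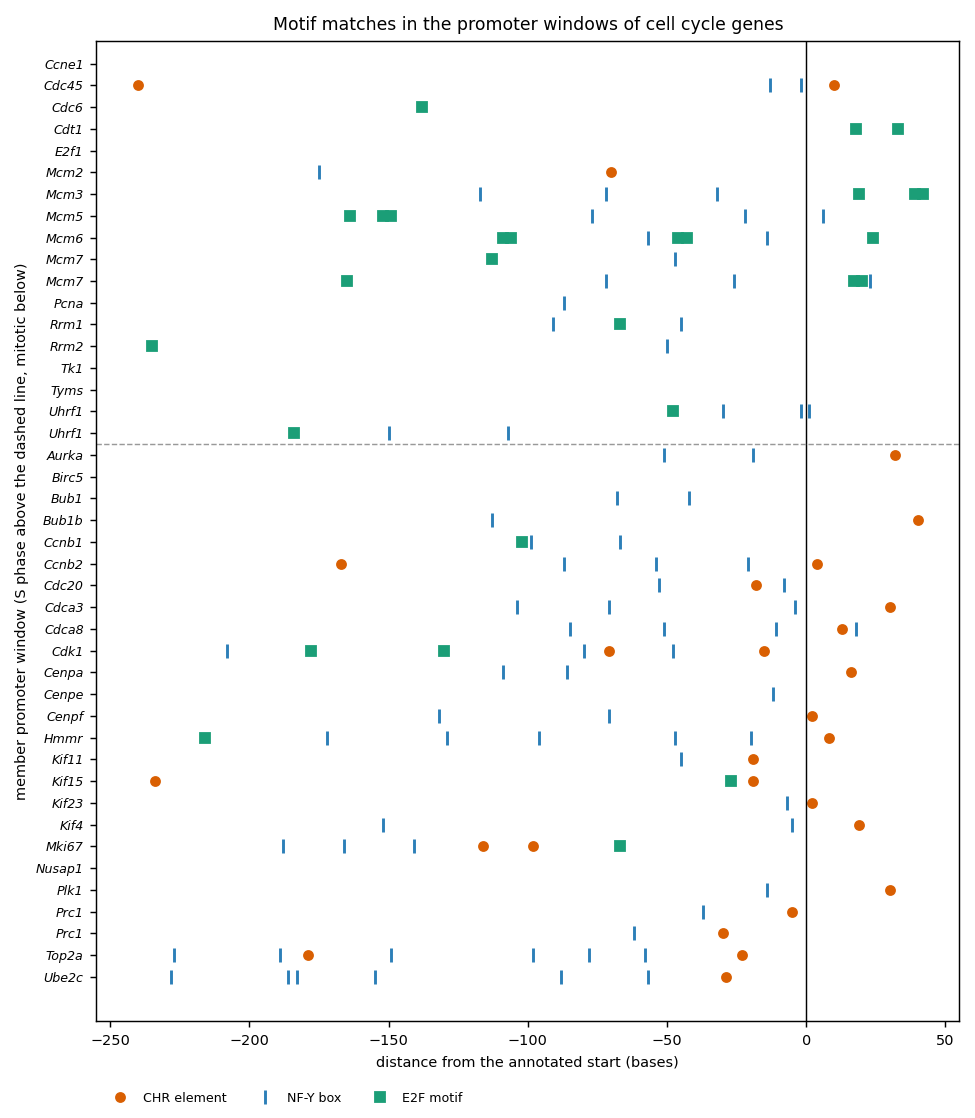
Position of each CHR element (orange circles), NF-Y box (the CCAAT box, blue bars) and E2F motif (green squares) relative to the annotated start at 0, in bases, with 1 row for each of the 43 promoter windows, S phase members above the dashed line and mitotic members below. Orange circles are found in 20 of the 25 mitotic rows and in 2 of the 18 S phase rows. In 19 of the 20 mitotic rows a circle lies within 50 bases of the start, and Mki67 is the exception. The rows of Ccne1, E2f1, Tk1, Tyms, Birc5 and Nusap1 are empty.

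Among the regulators of S phase entry, Ccne1, which encodes the cyclin that activates CDK2 at the end of G1, rose in TNF+ lungs. Its normalized counts (counts scaled to the mean library size after TMM normalization) were 94.9, 116 and 98.2 in TNF+ lungs against 38.2, 41.2 and 48.9 in the TNF- lungs (log2 fold change 1.27, SE 0.21, adjusted p = 0.00183, edgeR). The groups stood well apart, and the call held in all 6 fits that left out 1 lung. Its partner gene Ccne2 was among the scarcest members, with 40.9, 35.2 and 39.6 normalized counts against 20.1, 4.79 and 23.1. TNF- lung 2, with 5 counts, was far below the other lungs, and the fold change of 2.39 (95% interval 1.12 to 5.08) did not pass edgeR's test (adjusted p = 0.0585) but passed those of DESeq2 (adjusted p = 0.0475) and limma-voom (adjusted p = 0.0393). E2f1, the factor that activates replication genes, had 459, 442 and 536 against 307, 312 and 372 normalized counts (log2 fold change 0.54, SE 0.14, adjusted p = 0.0137, edgeR). Its groups did not overlap, and its call was kept in 3 of the 6 fits without 1 lung, being lost without TNF+ lung 3, TNF- lung 1 or TNF- lung 2 (adjusted p up to 0.0722), and also when libraries were scaled by total counts only (adjusted p = 0.053). The RefSeq windows of Ccne1 and E2f1 held none of the 3 motifs, but that of E2f1 lies inside the gene as GENCODE annotates it, with the GENCODE start 216 bases upstream of the window.

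Of 12 genes that license origins or work at the replication fork, 6 were higher in TNF+ lungs. The subunits of the MCM2-7 helicase, which form a ring in equal numbers, had fold changes of 0.972 to 1.75. Mcm3 had 1052, 1180.0 and 1092 normalized counts in TNF+ lungs against 597, 674 and 626 in the TNF- lungs (log2 fold change 0.81, SE 0.10, adjusted p = 0.000383, edgeR), and Mcm6 had 1442, 1275 and 1372 against 944, 1067 and 944 (log2 fold change 0.47, SE 0.10, adjusted p = 0.00514). Mcm5 rose from a mean of 449 to 632 normalized counts (log2 fold change 0.49, adjusted p = 0.0125), with a call that was lost without TNF+ lung 1 or TNF+ lung 3 (adjusted p up to 0.06) and with scaling by total counts only (adjusted p = 0.0512). Mcm3 and Mcm6 kept theirs in all 6 fits without 1 lung.

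Mcm4 was the flattest member. It had 645, 493 and 659.8 normalized counts in TNF+ lungs against 622, 629.7 and 598 in the TNF- lungs, and TNF+ lung 2 was the lowest of all 6. Its fold change of 0.972 had a 95% interval of 0.784 to 1.20 (edgeR adjusted p = 0.822). That interval lies below the 1.496 to 2.05 of Mcm3 and overlaps the 1.18 to 1.62 of Mcm6, and the differences between subunits were not tested. Mcm7 had 812, 820.1 and 897 against 788, 784 and 817 normalized counts, overlapping groups and an interval of 0.911 to 1.23 around a fold change of 1.06 (adjusted p = 0.499). For Mcm2 the interval was 0.963 to 1.65 around 1.26 (adjusted p = 0.137), and its TNF+ lungs held 530.1, 496 and 741 normalized counts against 423, 489 and 491, with TNF+ lung 3 far above the rest.

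The ratio of Mcm3 to Mcm4 counts within each lung was 1.63, 2.39 and 1.66 in TNF+ lungs against 0.960, 1.07 and 1.05 in the TNF- lungs. That of Mcm6 to Mcm7 was 1.78, 1.55 and 1.53 against 1.20, 1.36 and 1.16. In both pairs the TNF+ lungs were all above the TNF- lungs, by a pairing that was chosen after the values were seen and is given with no test. A ratio within a lung does not depend on the library size or on the normalization.

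Beside the helicase, Cdt1, which loads it onto origins, had 429.8, 387 and 349 normalized counts against 204, 213 and 237 (log2 fold change 0.83, SE 0.14, adjusted p = 0.00186, edgeR), with every TNF+ lung above every TNF- lung. Cdc6, which loads it together with Cdt1, had 72.5, 70.3 and 91.6 against 65.9, 59.4 and 64.9 and did not pass the test (fold change 1.23, interval 0.885 to 1.72, adjusted p = 0.264). The ratio of Ccne1 to Cdc6 counts within a lung, again chosen after its values were seen, was 1.31, 1.65 and 1.07 in TNF+ lungs against 0.580, 0.694 and 0.753 in the TNF- lungs. Pcna, the sliding clamp of the polymerases, was the most abundant member per length in both genotypes. It had 1454, 1407 and 1999 normalized counts in TNF+ lungs against 1070.3, 972 and 1029 in the TNF- lungs (log2 fold change 0.66, SE 0.14, adjusted p = 0.00608). TNF+ lung 3 was the highest and the groups did not overlap, but 10.1% of the 100-base windows of its transcripts also occur in the pseudogene Pcna-ps2.

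Gins2, a subunit of the complex that joins the helicase at the fork, had 73.8, 82.7 and 103 against 41.1, 36.4 and 53.3 normalized counts (log2 fold change 0.99, SE 0.25, adjusted p = 0.0119, edgeR). Its groups were apart and its call held without each lung in turn, although 67.3% of its exonic bases lie opposite exons of Gse1, which was not called (log2 fold change -0.15). Whether reads of such overlapping genes were told apart by strand is not given in the sources used here. Uhrf1, which maintains DNA methylation behind the fork, had 278, 214 and 418 against 195, 202 and 199.9 normalized counts. The TNF- lungs lay within a narrow range and TNF+ lung 3 far above the rest, and edgeR did not call it (adjusted p = 0.064) while DESeq2 did (adjusted p = 0.0361) and limma-voom did not (adjusted p = 0.0869). Cdc45, the helicase partner of the GINS complex, had 103, 126 and 148 against 72.6, 99.7 and 87.1 normalized counts and was not called (adjusted p = 0.0716).

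Among the 4 genes of nucleotide supply, Tk1 showed the highest fold change of all 47 members. It encodes the cytosolic thymidine kinase that returns thymidine to the DNA precursor pool in dividing cells (ENSMUSG00000025574.13, chromosome 11, 117815526 to 117826092, minus strand). Tk1 had 621, 635 and 742 normalized counts in TNF+ lungs against 88.9, 118 and 106 in the TNF- lungs. Every TNF+ lung was more than 5 times as high as every TNF- lung. The fold change was 6.39 with a 95% interval of 4.98 to 8.19 (log2 fold change 2.68, SE 0.16, adjusted p = 1.18e-05, edgeR), which placed Tk1 at rank 181 of the 19199 genes by p-value. Left-out lungs moved its adjusted p to at most 0.00017.

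The other 3 genes of this group had far lower fold changes. Tyms, which makes thymidylate by the separate de novo route, had 222, 190.3 and 287 against 167, 125 and 148 normalized counts (log2 fold change 0.67, SE 0.20, adjusted p = 0.0273, edgeR). The groups did not overlap, but its call was kept in 2 of the 6 fits without 1 lung, the exceptions being the fits without TNF+ lung 1, TNF+ lung 3, TNF- lung 2 or TNF- lung 3 (adjusted p up to 0.0966), and was lost with scaling by total counts only (adjusted p = 0.0601). Rrm1 and Rrm2, the subunits of the ribonucleotide reductase, were not called. Rrm2 had 193, 132 and 200.1 against 125, 127 and 88.0 normalized counts (adjusted p = 0.0565, 0.0406 by DESeq2 and 0.0588 by limma-voom), and Rrm1 had 915, 908 and 1028 against 764, 854 and 747 (adjusted p = 0.0627). The 95% interval of the fold change ended at 2.20 for Tyms, 2.23 for Rrm2 and 1.42 for Rrm1, all below the 4.98 at which that of Tk1 began. Within each lung the ratio of Tk1 to Tyms counts was 2.80, 3.34 and 2.59 in TNF+ lungs against 0.531, 0.946 and 0.713 in the TNF- lungs. This pair, too, was chosen after its values were seen.

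Of the 9 cyclins, CDK1 and mitotic kinases, 6 were higher in TNF+ lungs. Cdk1, the kinase that starts mitosis and whose promoter is shown above with 2 CHRs, had 156, 169.6 and 241 normalized counts against 84.1, 73.8 and 96.0 (log2 fold change 1.16, SE 0.22, adjusted p = 0.0036, edgeR). Its cyclin partners rose with it. Ccna2 had 322, 317 and 458 against 210.2, 189 and 143 (log2 fold change 1.02, SE 0.21, adjusted p = 0.00492) and Ccnb1 had 123, 105 and 133 against 65.9, 58.5 and 38.2 (log2 fold change 1.15, SE 0.25, adjusted p = 0.00632). Cdk1, Ccna2 and Ccnb1 each had groups that did not overlap and were called without each lung in turn, although 14.9% of the transcript windows of Ccnb1 occur at other loci, among them the pseudogene Ccnb1-ps, and 12.5% of the exonic bases of Ccna2 lie opposite Exosc9, which was itself higher (log2 fold change 0.56). Ccnb2 had 142, 137 and 219.9 against 84.1, 106 and 71.1 (log2 fold change 0.93, SE 0.26, adjusted p = 0.0173), and its call was lost without TNF+ lung 3, TNF- lung 1 or TNF- lung 3 (adjusted p up to 0.0576). Aurkb, the kinase of the chromosomal passenger complex, had 158, 119.96 and 203 against 80.3, 90.1 and 87.1 (log2 fold change 0.90, SE 0.23, adjusted p = 0.0121).

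Of the spindle checkpoint genes Bub1b and Bub1, the first passed the test and the other did not, and the difference between their fold changes was not tested. Bub1b encodes BUBR1, which holds back the anaphase-promoting complex until all chromosomes are attached (ENSMUSG00000040084.9, chromosome 2, 118598211 to 118641591, plus strand), and had 687, 946 and 679 normalized counts in TNF+ lungs against 217, 242 and 174 in the TNF- lungs. All TNF+ lungs were far above the TNF- lungs, TNF+ lung 2 most of all. Its fold change was 3.66 with an interval of 2.72 to 4.90 (log2 fold change 1.87, SE 0.18, adjusted p = 0.000126, edgeR), the highest of the 28 mitotic members, and it was called without each lung in turn. Bub1, the kinase that works with BUBR1 at the kinetochore, had 54.1, 61.0 and 119.89 normalized counts against 51.6, 59.4 and 34.7. Its groups overlapped, TNF+ lung 3 stood far above every other lung, and its fold change of 1.62 had an interval of 0.912 to 2.89 (adjusted p = 0.145). The ratio of Bub1b to Bub1 counts was 12.7, 15.5 and 5.66 in TNF+ lungs against 4.204, 4.06 and 5.03 in the TNF- lungs, a pair chosen after its values were seen, and TNF+ lung 3 lay close to the TNF- lungs. Aurka, the kinase of the spindle poles, had 104, 103 and 98.2 against 66.9, 83.4 and 55.1 normalized counts (interval of the fold change 1.06 to 2.10, adjusted p = 0.0576), and Plk1, which acts throughout mitosis, had 139.8, 127 and 153 against 92.7, 113 and 125 (0.938 to 1.71, adjusted p = 0.17). Neither passed edgeR's test, although in both genes the TNF+ lungs were all above the TNF- lungs, and Aurka passed that of limma-voom (adjusted p = 0.0482).

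The 3 partners of the anaphase-promoting complex gave 1 call. Cdca3, a trigger of mitotic entry whose protein is degraded through that complex, had 207, 179 and 202 normalized counts against 109.9, 124 and 117 (log2 fold change 0.74, SE 0.16, adjusted p = 0.0058, edgeR), with groups apart. Cdc20, the activator of the complex, had 152, 253 and 319 in TNF+ lungs against 202, 243 and 154 in the TNF- lungs. TNF+ lung 1 was the lowest of all 6 lungs for Cdc20 and TNF+ lung 3 the highest, and the interval of its fold change of 1.21 was 0.771 to 1.91 (adjusted p = 0.449). Ube2c, the ubiquitin-conjugating enzyme of the complex, had 189.9, 157 and 280.4 against 195, 175 and 102, also with overlapping groups (interval 0.829 to 2.13, adjusted p = 0.284). Ube2c shares 22.8% of its exonic bases with Tnnc2 on the opposite strand, a muscle gene with 3015 counts in TNF- lung 1 and 0 to 44 in the other lungs.

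Centromere, kinetochore and passenger complex genes were called in 4 of 5 cases. Birc5, which encodes survivin, had 194, 163 and 237 normalized counts in TNF+ lungs against 87.9, 75.7 and 78.2 in the TNF- lungs (log2 fold change 1.297, SE 0.20, adjusted p = 0.00113, edgeR). The TNF- lungs were close together, and every TNF+ lung was well above them. Cdca8, the borealin subunit of the same complex, had 185, 128 and 244 against 118, 76.7 and 80.0 (log2 fold change 1.02, SE 0.28, adjusted p = 0.018), Cenpe, the kinetochore motor, had 161, 109.6 and 202 against 99.4, 54.6 and 62.2 (log2 fold change 1.13, SE 0.31, adjusted p = 0.0173), and Cenpf, a kinetochore protein, had 145, 171 and 230.3 against 137, 70.9 and 63.1 (log2 fold change 1.02, SE 0.32, adjusted p = 0.0322). In these 3 genes TNF- lung 1 was the highest TNF- lung and close to the lowest TNF+ lung, and each lost its call without TNF+ lung 3 and without TNF- lung 2. Cdca8 and Cenpe lost it also without TNF+ lung 1, Cenpf without TNF+ lung 2, and Cenpf and Cdca8 without TNF- lung 3 (adjusted p up to 0.0622 for Cenpe, 0.107 for Cenpf and 0.0662 for Cdca8). Cenpa, the histone variant that marks the centromere, had 298, 209.9 and 297 against 255, 244 and 213 normalized counts. TNF+ lung 2 was the lowest lung, and the fold change of 1.13 had an interval of 0.850 to 1.501 (adjusted p = 0.448). The ratio of Birc5 to Cenpa counts, chosen after its values were seen, was 0.650, 0.778 and 0.797 in TNF+ lungs against 0.345, 0.310 and 0.367 in the TNF- lungs.

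Of the 9 genes of the spindle and its midzone, 8 were higher in TNF+ lungs, with log2 fold changes of 0.77 to 1.29. Nusap1, which bundles spindle microtubules, had 231, 165 and 239 normalized counts against 94.6, 116 and 64.9 (log2 fold change 1.21, SE 0.25, adjusted p = 0.00559, edgeR), and Hmmr, a spindle assembly factor that also binds hyaluronan, had 91.0, 58.9 and 82.1 against 45.9, 26.8 and 26.7 (log2 fold change 1.22, SE 0.31, adjusted p = 0.0121). These 2 were called without each lung in turn. The plus-end motor Kif15 had 81.7, 46.5 and 143 against 39.2, 29.7 and 42.7 (log2 fold change 1.29, SE 0.40, adjusted p = 0.0303) and was the scarcest member per length. Its highest value, in TNF+ lung 3, was about 3 times that of TNF+ lung 2, and the call was kept in 1 of the 6 fits without 1 lung, that without TNF+ lung 2 (adjusted p up to 0.115), and was lost by limma-voom (adjusted p = 0.0589).

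All the remaining spindle and midzone genes except Kif23 were called. Each of these calls was lost in at least 1 of the 6 fits without 1 lung. Kif11, the motor that pushes the spindle poles apart, had 216, 135 and 303 normalized counts against 118, 133 and 89.7 (log2 fold change 0.94, SE 0.30, adjusted p = 0.0321, edgeR). TNF+ lung 2 stood just above the highest TNF- lung, and the call was kept in 1 of the 6 fits, that without TNF+ lung 2 (adjusted p up to 0.116). Kif20a, a midzone motor, had 194, 163 and 248 against 122, 149.5 and 69.3 (log2 fold change 0.83, SE 0.30, adjusted p = 0.0477). It was the call nearest to the threshold, kept in 1 of the 6 fits, that without TNF- lung 2 (adjusted p up to 0.151), and lost with the size factors of DESeq2 (adjusted p = 0.0519), and 29.3% of its exonic bases lie opposite Cdc23, which was lower (log2 fold change -0.37). Prc1, the microtubule crosslinker of the midzone, had 247, 239.9 and 408 against 201, 173 and 118 (log2 fold change 0.87, SE 0.27, adjusted p = 0.03). Its call was lost without TNF+ lung 3, TNF- lung 2 or TNF- lung 3 (adjusted p up to 0.1). The chromosome-bound motor Kif4 had 125, 139 and 194 against 81.2, 103 and 84.4 (log2 fold change 0.77, SE 0.22, adjusted p = 0.022), and lost the call without TNF+ lung 3, TNF- lung 1 or TNF- lung 3 (up to 0.0758). Tpx2, which activates Aurora A on the spindle, had 249, 244 and 348 against 194, 154 and 146 (log2 fold change 0.77, SE 0.20, adjusted p = 0.0138) and lost it without TNF- lung 2 (up to 0.0536). Kif23, the motor of the centralspindlin complex, had 209.6, 135 and 262 against 177, 143 and 134 with overlapping groups, and its interval was 0.894 to 2.01 (adjusted p = 0.205).

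Both chromosome genes were higher. Mki67 encodes Ki-67, the coat of mitotic chromosomes that is widely stained as a mark of dividing cells (ENSMUSG00000031004.8, chromosome 7, 135689784 to 135716361, minus strand). It had 2314, 2157 and 2529.9 normalized counts in TNF+ lungs against 1023, 653 and 624 in the TNF- lungs, with means and SDs over 3 lungs of 2334 ± 187 in TNF+ and 767 ± 223 in TNF- lungs. TNF- lung 1 was the highest of the TNF- lungs and still far below every TNF+ lung. The fold change was 3.04 with an interval of 2.25 to 4.12 (log2 fold change 1.61, SE 0.19, adjusted p = 0.000312, edgeR). Top2a, the topoisomerase that untangles sister chromosomes, had 619.7, 608 and 1099 against 502, 435 and 297 (log2 fold change 0.92, SE 0.27, adjusted p = 0.025). TNF+ lung 3 was far above the other TNF+ lungs for Top2a, and its call was lost without TNF+ lung 3, TNF- lung 2 or TNF- lung 3 (adjusted p up to 0.0724). The ratio of Mki67 to Top2a counts, also chosen after its values were seen, was 3.73, 3.55 and 2.30 in TNF+ lungs against 2.04, 1.5 and 2.10 in the TNF- lungs.

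Levels of different members were set side by side only as CPM per kilobase of annotated exons, given as mean ± SD of 3 lungs. Pcna was the highest in both groups, at 22.3 ± 4.54 in TNF+ and 14.1 ± 0.682 in TNF- lungs, and Kif15 the lowest, at 0.272 ± 0.147 and 0.112 ± 0.0201. Among the 47 members Tk1 stood at rank 31 in TNF- lungs (0.663 ± 0.0927) and at rank 11 in TNF+ lungs (4.24 ± 0.421). Bub1b moved from rank 16 (1.63 ± 0.264) to rank 6 (5.96 ± 1.18), and Mki67 from rank 9 (2.52 ± 0.733) to rank 4 (7.67 ± 0.615). Mcm3, at 9.77 ± 0.576, and Mcm6, at 9.67 ± 0.596, differed by less than the spread between lungs in TNF+ mice.

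Further genes of the same processes were taken from lists of the pathway. Of 39 other mitotic genes tested, TNF+ lungs had 23 higher and 0 lower (31 and 0 at an unadjusted p under 0.05, and 23 and 1 by DESeq2), with a median log2 fold change of 0.91, and the 59.0% higher stands beside 24.0% of all genes tested. Kif2c, a motor that removes wrongly attached microtubules, had 148, 108 and 174 normalized counts against 48.7, 43.1 and 17.8 (log2 fold change 1.97, SE 0.37, adjusted p = 0.00321, edgeR), and Espl1, the separase that cuts the cohesin ring, had 434, 564 and 602 against 190.2, 155 and 150.2 (log2 fold change 1.69, SE 0.17, adjusted p = 0.000149). In both genes every TNF+ lung was far above every TNF- lung. Of 39 other S phase genes tested, 16 were higher and 0 lower (22 and 0 unadjusted, and 16 and 0 by DESeq2), a share of 41.0%, with a median of 0.45. Fen1, the nuclease that trims Okazaki fragments, had 436, 477 and 487 against 213, 149 and 190.2 (log2 fold change 1.34, SE 0.16, adjusted p = 0.000342), and Hells, a chromatin remodeller, had 131, 114 and 193 against 52.6, 73.8 and 44.4 (log2 fold change 1.36, SE 0.28, adjusted p = 0.00533).

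The D cyclins, which act earlier in G1 and respond to growth signals, went the other way. None of the 6 D cyclin and CDK genes was higher (0 at an unadjusted p under 0.05 and 0 by DESeq2), and 3 were lower, beside 23.4% of all genes tested. Ccnd3 had 3004, 3107 and 3255 normalized counts in TNF+ lungs against 6252, 6205 and 7184 in the TNF- lungs (log2 fold change -1.07, SE 0.10, adjusted p = 0.000107, edgeR), Ccnd2 had 2507, 2216 and 2647 against 4392, 3652 and 3489 (log2 fold change -0.65, SE 0.12, adjusted p = 0.00308), and Ccnd1, named after its values were seen, had 5071, 3959 and 5488 against 7362, 7196 and 6312 (log2 fold change -0.52, SE 0.14, adjusted p = 0.0161). The groups did not overlap in any of the 3 genes. The kinase genes Cdk2, Cdk4 and Cdk6 were not called, with log2 fold changes of 0.25, 0.25 and 0.08. The D cyclins are also transcribed in resting lung cells, and endothelial markers fell in the same lungs, whose part in these differences was not tested.

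Among 11 CDK inhibitor and p53 axis genes, 4 were higher and 0 were lower (4 and 1 at an unadjusted p under 0.05, and 4 and 1 by DESeq2), and the 36.4% higher stands beside 24.0% of all genes tested. Trp53, the gene of p53, had 2214, 2286 and 2762 normalized counts against 1453, 1357 and 1411 (log2 fold change 0.78, SE 0.11, adjusted p = 0.000638, edgeR), and Cdkn2c, the gene of the CDK4 and CDK6 inhibitor p18, rose by a log2 fold change of 0.41 (adjusted p = 0.0235). The other 2, named after their values were seen, were Cdkn2a, which encodes p16 and p19ARF, with 34.3, 77.6 and 46.3 against 17.2, 8.63 and 11.6 (log2 fold change 2.08, SE 0.41, adjusted p = 0.00402), and Cdkn1b, the gene of p27, with a log2 fold change of 0.37 (adjusted p = 0.0469). Cdkn1a, the p21 gene and a main target of p53, had 2046, 1747 and 1476 against 3183, 2674 and 1815 normalized counts, with overlapping groups and an adjusted p of 0.0595.

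Of 21 further genes of the RB, E2F, MYB and FOXM1 regulators, 5 were higher and 2 were lower, shares of 23.8% and 9.52% beside the 24.0% and 23.4% of all genes tested. Mycn, a gene of the MYC family, had 81.7, 146 and 236 normalized counts against 38.2, 26.8 and 24.0 (log2 fold change 2.38, SE 0.40, adjusted p = 0.00185, edgeR) and Myc had 410.1, 388 and 469 against 221, 181 and 205 (log2 fold change 1.06, SE 0.14, adjusted p = 0.000629). The other 3 that rose, named after their values were seen, were the E2F factor E2f3 (0.60), the pocket protein gene Rbl1 (0.59) and the MuvB subunit Lin9 (0.89), each by log2 fold change. E2f2 (log2 fold change -0.53, SE 0.09, adjusted p = 0.00187) and the MuvB subunit Lin52 (log2 fold change -0.46, SE 0.15, adjusted p = 0.0319) were lower. Foxm1 and Mybl2, factors that switch on mitotic genes with MuvB, had overlapping groups and were not called. Foxm1 had 278, 315 and 399 normalized counts against 283, 272 and 223 (log2 fold change 0.35, interval -0.05 to 0.76, adjusted p = 0.132) and Mybl2 had 145, 155 and 178 against 136, 135 and 147 (0.20, -0.18 to 0.58, adjusted p = 0.348).

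Markers of several cell types differed between the same lungs, and their part in the rise of the cell cycle genes was not tested. The counts of called markers stand beside 24.0% of all genes tested called higher and 23.4% called lower. The 5 general leukocyte markers were all higher in TNF+ lungs, with a summed level of 2145 to 2508 CPM in TNF+ lungs against 762 to 975 CPM in TNF- lungs. Of 8 macrophage markers 7 were higher and 1 lower (3643 to 5562 CPM in TNF+ lungs against 341 to 378 CPM in TNF- lungs). Marco alone held much of the TNF+ sum, and the ratio of the group means was 12.4 with it and 6.45 without it. T cell markers were higher for 5 of 6 (345 to 493 CPM in TNF+ lungs against 44.9 to 83.9 CPM in TNF- lungs), and most of the TNF+ sum was Cd4, without which the ratio was 1.70 instead of 7.21. Plasma cell markers were higher for 6 of 7 (2258 to 4558 CPM in TNF+ lungs against 396 to 569.6 CPM in TNF- lungs). Most of the TNF+ sum was Jchain, without which the ratio was 1.49 instead of 7.501. Xbp1 (log2 fold change 0.64) and Sdc1 (-0.0195, not called) made up most of the sum without Jchain. The scarcer markers Mzb1, Tnfrsf17, Irf4 and Prdm1 were called higher, with log2 fold changes of 2.897, 2.38, 1.89 and 0.96. B cell markers were higher for 3 of 5 (228 to 248 CPM in TNF+ lungs against 107 to 192 CPM in TNF- lungs). Germinal centre B cells divide fast, and of their 8 markers 5 could be tested, with 0 higher (0 unadjusted and 0 by DESeq2) and 1 lower, at 104 to 114 CPM in TNF+ lungs against 115 to 119 CPM in TNF- lungs. Their markers Rgs13 and Mef2b were at 0 to 4 counts per lung. TNF+ lung 3, highest for 37 of the cell cycle genes, was the lowest of the TNF+ lungs in the summed macrophage, T cell and plasma cell markers, with and without the most abundant gene of each list. It was also the lowest in the summed leukocyte and B cell markers, but not when Laptm5 or Cd79a, their most abundant genes, was left out. Among the TNF+ lungs it was the highest in the summed endothelial markers, at 1387 CPM against 1246 and 1163, and in the summed mesenchymal markers, at 1018 CPM against 1009 and 1007.

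Lung and blood vessel markers were lower in TNF+ lungs, where 23.4% of all genes tested were called lower. All 5 endothelial markers fell (1163 to 1387 CPM in TNF+ lungs against 2294 to 2849.9 CPM in TNF- lungs), as did 6 of 10 lung tissue markers (20241 to 26143 CPM in TNF+ lungs against 38358 to 44873 CPM in TNF- lungs) and 4 of 5 mesenchymal markers (1007 to 1018 CPM in TNF+ lungs against 1265 to 2039 CPM in TNF- lungs). Natural killer cell markers were lower for 4 of 5 (10.4 to 11.2 CPM in TNF+ lungs against 31.1 to 47.2 CPM in TNF- lungs, a ratio of 0.280 that was 0.497 without Gzma), neutrophil markers for 4 of 5 (16.4 to 37.3 CPM in TNF+ lungs against 56.2 to 98.6 CPM in TNF- lungs) and erythroid markers for 5 of 6 tested (8167 to 11972 CPM in TNF+ lungs against 33524 to 61054 CPM in TNF- lungs). Squamous epithelium markers set TNF- lung 1 apart rather than the genotypes, with 3 of 5 tested called lower by edgeR, 2 by DESeq2 and 0 by limma-voom, at 10.2 to 14.0 CPM in TNF+ lungs, 3436 CPM in TNF- lung 1 and 13.6 and 29.2 CPM in the other TNF- lungs.

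**Figure D4:**
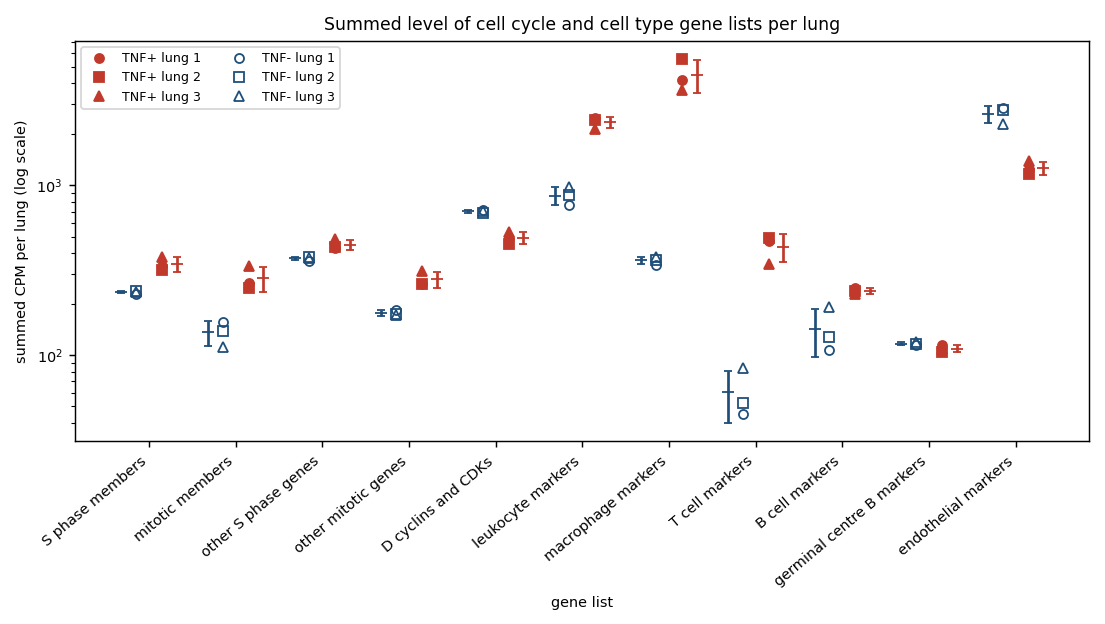
Summed CPM per lung (vertical axis, log scale) of the cell cycle lists and of cell type marker lists, with filled red symbols for TNF+ lungs, open blue symbols for TNF- lungs and bars for the mean and SD of 3 lungs. The mitotic members stand at 249.8 to 337 CPM in TNF+ lungs against 112 to 157 CPM in TNF- lungs; macrophage and T cell markers are also higher in TNF+ lungs, and D cyclins with CDKs and endothelial markers are lower.

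The number of members called depended most on the lungs included and on the size of change asked for. When a log2 change of at least 1 was required, 14 members were called. Of the 31 calls, 17 were made in each of the 6 fits that left out 1 lung, and these were Ccne1, Cdt1, Mcm3, Mcm6, Gins2, Pcna, Tk1, Ccna2, Ccnb1, Cdk1, Aurkb, Bub1b, Cdca3, Birc5, Nusap1, Hmmr and Mki67. The other 14 lost the call in at least 1 fit. Without TNF+ lung 3, 18 members were called, and without both this lung and TNF- lung 1, the lung with squamous epithelium genes, 18 were called as well, but not the same genes. Mcm6, Gins2, Aurkb and Cdca3, among the 17 above, lost their calls without both lungs, with adjusted p of 0.0536, 0.107, 0.103 and 0.057. In each of these fits 0 members were lower.

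**Figure D5:**
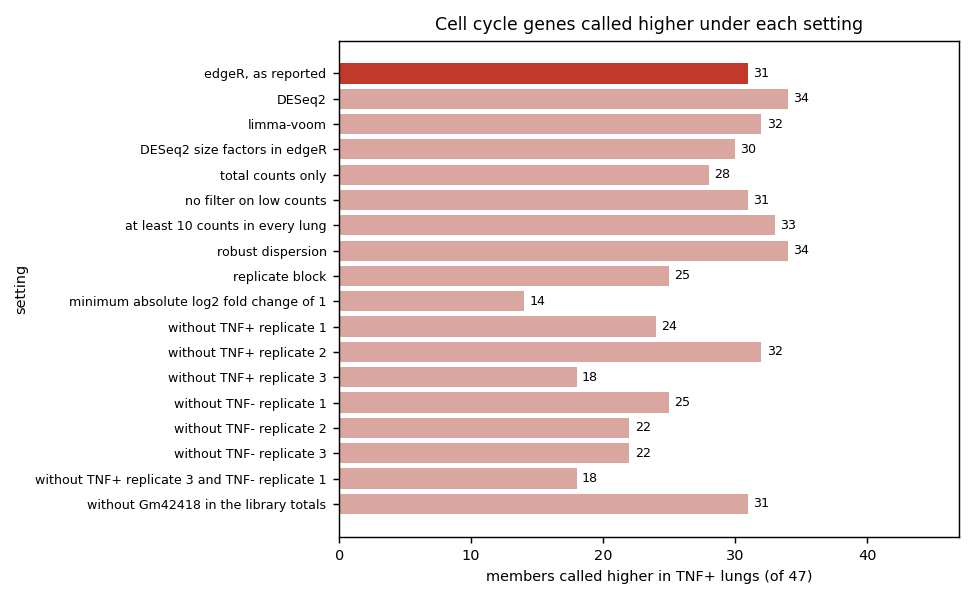
Number of the 47 members called higher in TNF+ lungs at an adjusted p under 0.05 (horizontal axis) under each setting (rows), with the reported test in dark red. The bars lie between 14, where a log2 change of at least 1 was required, and 34, for DESeq2 and for robust dispersion, with 31 in the reported test.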

How the data were processed

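RNA of 3 TNF+ and 3 TNF- lungs was sequenced from stranded poly(A) libraries. The authors trimmed the reads with Trimmomatic, mapped them with STAR (2.5.2b) and deposited raw counts per gene symbol; the submitters' processing notes name featureCounts and GRCm38.p5, and the strand setting and annotation of the counting are not given in the sources used here. Counts were tested with edgeR (4.0.16, R 4.3.3) using filterByExpr, TMM scaling and a quasi-likelihood model of genotype, and p-values were adjusted by Benjamini-Hochberg over all 19199 genes tested. DESeq2 (1.42.0), which the study used, and voom of limma (3.58.1) were alternatives, with other normalizations and filters and each lung left out in turn. SE is the log2 fold change divided by the square root of F. Lists were described by counts and medians, with no test of a list. Members and lists were chosen with earlier results of these data known. Named pathway genes are up to 2 called genes per list and direction, ordered by fold change, whose mean log2 CPM reached 1 and whose groups did not overlap. Other called pathway genes are marked. Cdk2, Cdk4, Cdk6, Cdkn1a, Foxm1 and Mybl2, which were not called, were named outside this rule. Positions are from GENCODE M21 on GRCm38 and promoters from RefSeq on GRCm38.p6. The programs were tested on simulated data with 200 changed genes. Of these, edgeR found 152 with 16 false calls, DESeq2 175 with 51 and limma-voom 151 with 14. Total counts were 25396923 to 32529408 per lung, and the spread between lungs exceeded counting error. Same-numbered mice are different animals. The single-cell, histology and other data of the study were not analysed here.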

Additional observations from a re-analysis of the deposited data

How the results depend on the processing

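The direction of 45 members and the 0 lower calls held under every alternative run, and a reversal was seen for Mcm4 (log2 fold change -0.14 to 0.083 over all alternatives, the highest without TNF+ replicate 2) and Mcm7 (-0.00044, without both TNF+ replicate 3 and TNF- replicate 1, to 0.10), neither of which was called. The members called numbered 31 as reported, 34 by DESeq2, which added Ccne2, Uhrf1 and Rrm2, 32 by limma-voom, which added Ccne2 and Aurka and lost Kif15, 30 with DESeq2's size factors, which lost Kif20a, 28 with total counts only, which lost E2f1, Mcm5 and Tyms, 31 with no filter on low counts, 33 with at least 10 counts in every lung and 34 with robust dispersion. A minimum absolute log2 fold change of 1 left 14 members (2 S phase and 12 mitotic) and 4320 of the 9096 genes. Leaving out each lung in turn gave 18 to 32 called members, among them 7 to 12 S phase members (10 as reported) and 11 to 20 mitotic members (21 as reported), not all of them among the reported calls, 7347 to 9164 genes and a median of 0.59 to 0.85. The fewest members were called without TNF+ replicate 3 (18, with 11 mitotic), and without TNF- replicate 3 there were 12 mitotic members. Without both TNF+ replicate 3 and TNF- replicate 1, an alternative chosen after seeing the data, 18 members were called (5 S phase and 13 mitotic) and the median was 0.63. Without Gm42418, also chosen after seeing the data, 31 were called. The causes of these changes were not tested, beyond the smaller number of lungs in some fits.

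A replicate block on the mouse number gave 7686 called genes and 25 called members, and Ccnb2, Cenpf, Kif11, Kif20a, Prc1 and Top2a lost the call (adjusted p up to 0.0966). The numbers are shared labels and pair no animals. The deviations of same-numbered lungs from their group means correlated at -0.149, -0.00429 and -0.242 across genes, against a mean of 0.0661 over the other pairs, so no lung pair was used as a pair. Depth limits the scarcest members most, such as Ccne2 with 5 to 42 counts per lung.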
